A study of Homo sapiens with 12 samples.

Results

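The 10 genes described here encode the enzymes that make, desaturate and elongate fatty acids: ACLY, ACSS2, ACACA, FASN, SCD, FADS1, FADS2, ELOVL1, ELOVL5 and ELOVL6. They were chosen by name, by function, and are 10 of the 58907 genes in the count table. All 10 passed the filter on low counts, as 15252 genes did in all. Their RNA was measured in PPRE-eGEP-THP-1 cells, a line derived from THP-1, itself an established human monocytic leukaemia line (labelled as monocytes, with PPRE not spelled out). All 4 groups received phorbol 12-myristate 13-acetate (PMA) at 25 ng/mL for 48 h and were rested for 24 h, which turns the cells into macrophages. The M1 groups were then given LPS at 100 ng/mL with IFN-γ at 20 ng/mL for 24 h. The M2 groups were given IL-4 and IL-13, each at 20 ng/mL, for the same 24 h. During those 24 h 1 group of each polarization received 100 µM MCHP (monocyclohexyl phthalate, a breakdown product of a phthalate plasticizer) and the other the solvent DMSO. Each group held 3 libraries of polyadenylated RNA, which the submitters call biological replicates. Nothing in the labels says that they came from separate cultures, so p-values measure the spread between these libraries only.

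Fatty acid synthesis starts from cytosolic acetyl-CoA, which ACLY makes from citrate and ACSS2 from acetate. ACACA carboxylates acetyl-CoA to malonyl-CoA, and FASN joins these units into palmitate. SCD then makes monounsaturated acids, FADS1 and FADS2 add double bonds to polyunsaturated acids, and ELOVL enzymes catalyse the condensation step of chain elongation in the endoplasmic reticulum. SREBP1, encoded by SREBF1, and the liver X receptors are the textbook transcriptional activators of the pathway, and in macrophages its products go into membranes and lipid droplets.

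Libraries held 14352202 to 16871233 counts. One control library, M2 DMSO replicate 1, was unlike its group: the SD over genes of its log2 distance to its group's remaining libraries was 0.325, where the other 11 libraries had 0.186 to 0.226. Results that rest on it are given with and without it. Of 10 macrophage and myeloid markers, 8 passed the filter, with CSF1R, ITGAM, PTPRC and SPI1 each at a mean of 249 CPM or more in every group. CD68 and MSR1 did not pass, at group means of at most 0.385 and 0.327 CPM. The summed level of 7 M1 markers was 11302 to 12047 CPM in the 6 M1 libraries and 4803 to 5813 in the 6 M2 libraries, most of it IL1B, and each of the 7 had its higher group means in M1. The summed level of 7 M2 markers was 8813 to 11464 CPM in M2 and 2173 to 2395 in M1, nearly all of it TGM2 (group means of 9391 and 10046 CPM in M2, 2115 and 2295 in M1). CCL22, CD209 and ALOX15 were also higher in M2, but CLEC10A was the other way round, at group means of 18.1 and 22.3 CPM in M1 and 0.708 and 1.43 in M2. MRC1, a usual M2 marker, had no count in 3 of the 4 groups. The 4 adipocyte markers summed to at most 0.525 CPM in any library. The 5 epithelial and fibroblast markers summed to 114 to 136 CPM in M1 and 22.1 to 31.7 in M2, nearly all of it COL1A1, while EPCAM and COL3A1 had no count.

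SCD dominated the group. Levels are given in CPM, counts scaled to a common library size with TMM factors, and genes are ranked by level per kilobase of gene model. SCD (stearoyl-CoA desaturase) stood at 232 ± 11.6 CPM per kilobase in M2 DMSO, 249 ± 5.62 in M1 DMSO, 281 ± 5.02 in M1 MCHP and 319 ± 14.6 in M2 MCHP (SD, n = 3). It was 5.29 to 7.06 times the next gene in each group. Summed over the 10 genes, the mean level was 2289 ± 148 CPM in M2 DMSO, 2349 ± 41.2 in M1 DMSO, 2542 ± 32.0 in M1 MCHP and 2879 ± 128 in M2 MCHP (SD, n = 3). SCD made up 54.3% to 59.4% of this sum, a share of CPM that is not corrected for gene length.

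Below SCD the order per kilobase was ACLY, ELOVL5, ELOVL1, FASN, ACSS2, FADS1, FADS2, ACACA and ELOVL6 in both M1 groups. In both M2 groups ELOVL5 stood above ACLY (43.8 ± 1.57 against 38.3 ± 3.32 CPM per kilobase in DMSO, SD, n = 3), and the rest of the order did not differ. Most neighbours in this order did not overlap in any library. The exceptions were ELOVL1 and FASN in both M1 groups, and ACLY and ELOVL1 in M2 DMSO. ACACA, whose gene model is long, stood next to last at 3.61 to 5.49 CPM per kilobase over the group means. ELOVL6, which elongates palmitate, was far below the rest at 0.256 to 0.611, on 21 to 84 counts per library, so its values are the least precise of the 10.

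**Figure D1:**
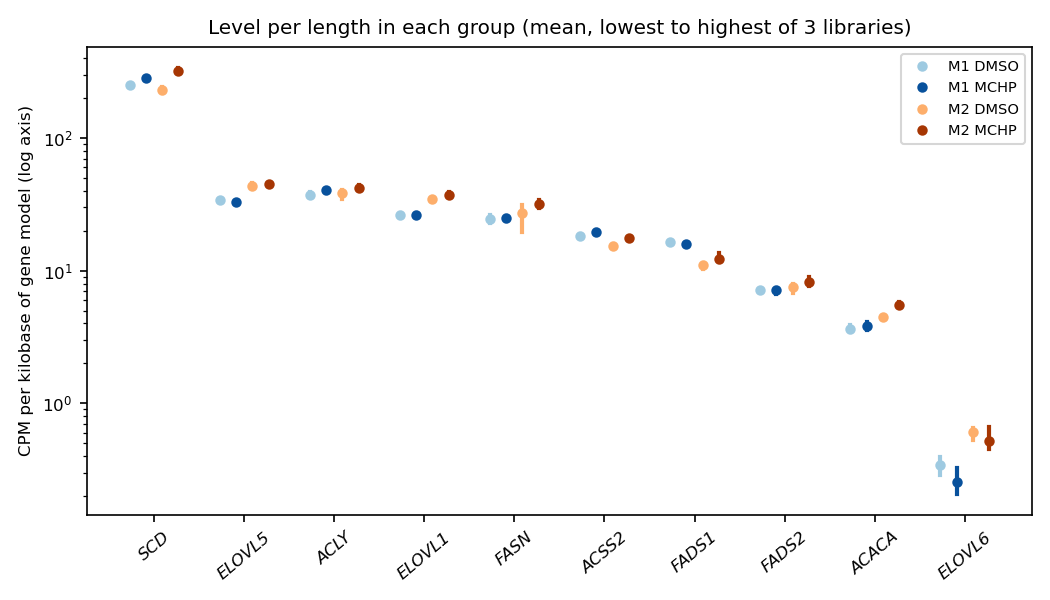
Level per length of the 10 genes in each group (horizontal axis: genes in order of level; vertical axis: CPM per kilobase of gene model, log axis; points: group means; lines: lowest to highest of 3 libraries). SCD lies above every other gene and ELOVL6 below every other gene in all 4 groups.

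The upstream windows of the genes were read from RefSeq (GRCh38.p14, 250 bases before each annotated start site), where 9 of the 10 genes matched and FASN had no entry. The 9 genes have 14 windows. They were searched on both strands for the CCAAT box, CCAAT, and the GC box, GGGCGG, whose binding factors NF-Y and Sp1 are known partners of SREBP on lipogenic promoters. They were also searched for direct repeats of the nuclear receptor motif AGGTCA with 4 bases between (as liver X receptors bind) or 1 base between (as PPARs bind). A CCAAT box lay in windows of 6 of the 9 genes (ACLY, ACACA, ACSS2, SCD, ELOVL1 and ELOVL5), against 37% of all genes in the RefSeq table. It lay in 8 of 14 windows, against 32% of all 35116 windows. A GC box lay in windows of 8 of the 9 genes, all but ELOVL5, against 46.2% of all genes, and in 11 of 14 windows, against 42.6% of all windows. The windows compared were not matched for GC content or for expression. Neither repeat was in any of the 14 windows, and 0.0142% and 0.0171% of all windows held one. Printed here are windows of SCD and ACACA, the genes that MCHP raised in M2, of ACLY, which was not called there, and of ELOVL6, which lacks the CCAAT box. Each runs 5′ to 3′ on the strand of its gene, without the bases that lie in an annotated exon, and capitals mark the CCAAT box in either orientation (CCAAT or ATTGG). Matches describe letters only.
SCD, chr10:100346983-100347123, plus strand: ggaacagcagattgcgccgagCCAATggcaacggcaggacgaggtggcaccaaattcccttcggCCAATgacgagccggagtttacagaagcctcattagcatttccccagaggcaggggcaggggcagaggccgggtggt
ACACA, chr17:37359122-37359346, minus strand: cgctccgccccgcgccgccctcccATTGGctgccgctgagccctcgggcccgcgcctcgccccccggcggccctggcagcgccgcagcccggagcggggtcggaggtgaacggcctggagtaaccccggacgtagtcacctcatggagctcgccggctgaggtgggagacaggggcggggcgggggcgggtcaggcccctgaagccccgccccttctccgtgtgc
ACLY, chr17:41919023-41919272, minus strand: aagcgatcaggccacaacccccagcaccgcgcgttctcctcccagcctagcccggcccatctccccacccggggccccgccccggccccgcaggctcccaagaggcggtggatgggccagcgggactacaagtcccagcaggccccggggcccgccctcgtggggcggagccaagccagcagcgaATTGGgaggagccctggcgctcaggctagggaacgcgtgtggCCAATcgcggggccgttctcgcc
ELOVL6, chr4:110198677-110198841, minus strand: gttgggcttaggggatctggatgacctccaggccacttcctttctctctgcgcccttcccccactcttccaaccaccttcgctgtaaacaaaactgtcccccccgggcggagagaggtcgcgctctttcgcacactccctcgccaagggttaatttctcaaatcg
The boxes of SCD begin 229 and 186 bases before its start site, that of ACACA 226 bases, and those of ACLY 65 and 23 bases. The ACACA window shown also holds 6 GC boxes, the ACLY window 3 and the ELOVL6 window 1.

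Setting MCHP against DMSO in M2 macrophages asks how the compound acts on alternatively polarized cells. SCD and ACACA rose, and no member fell. In this contrast 2 of the 10 genes were called, at an adjusted p under 0.05 by edgeR's quasi-likelihood test, against 5.11% of all genes tested (2.92% higher and 2.18% lower). The log2 fold change was above 0 for 9 of the 10 genes, as for 49.9% of all genes, and the median over the 10 was 0.15, against -0.0003 over all genes tested. Without M2 DMSO replicate 1 no sign changed, but ACLY went from 0.14 to 0.07, FASN from 0.23 to 0.05 and FADS2 from 0.13 to 0.06. ELOVL5 and ELOVL6 moved up, to 0.07 and -0.16, and the remaining genes fell by less than ACLY. All 3 MCHP libraries lay above all 3 DMSO libraries for 6 genes (SCD, ACACA, ACSS2, ACLY, FADS1 and ELOVL1), against 11.2% of all genes. These are bulk libraries, so a change in the share of cells with the RNA and a change in RNA per cell cannot be told apart.

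**Figure D2:**
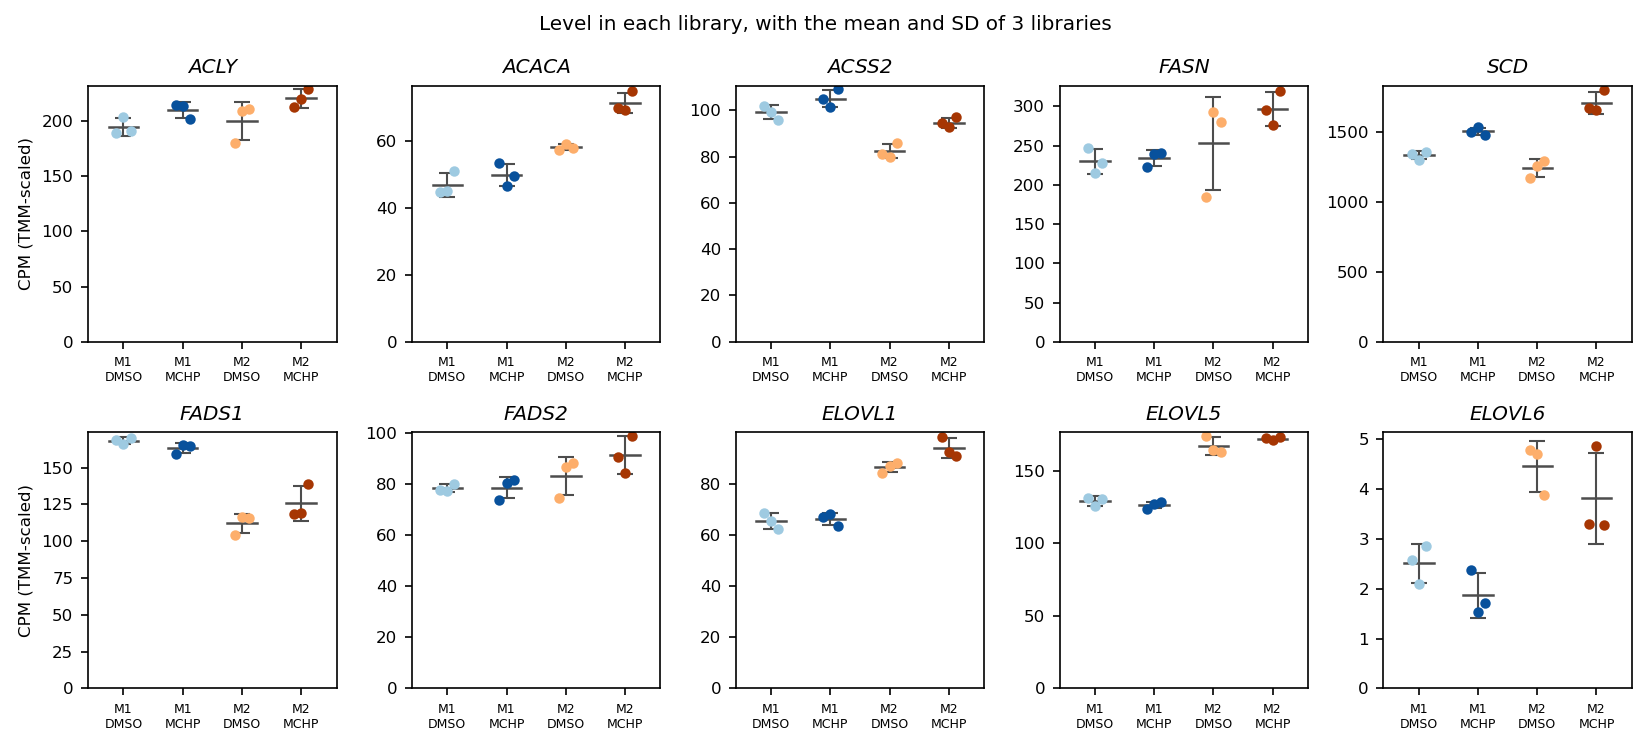
Level of each gene in each library (vertical axis: CPM scaled with TMM factors, from 0; points: libraries; bars: mean and SD of 3 libraries). The 3 M2 MCHP libraries of SCD (1655 to 1798 CPM) lie above the other 9 libraries, while the M2 DMSO libraries of FASN spread from 184 to 293 CPM.

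SCD (ENSG00000099194, chromosome 10, 100347124 to 100364834, plus strand, hg38) stood at 1174, 1258 and 1296 CPM in the 3 M2 DMSO libraries and at 1673, 1655 and 1798 CPM in the 3 M2 MCHP libraries. The groups did not overlap, and the lowest treated library lay well above the highest control. The mean went from 1243 ± 62.4 CPM to 1709 ± 78.2 CPM (SD, n = 3). That is 0.46 ± 0.05 (SE) on the log2 scale, or 37.5% (adjusted p = 4.34e-05, edgeR's quasi-likelihood test). SCD was called under each of the 13 alternatives run on it, with log2 fold changes of 0.41 to 0.49 and adjusted p of 2.02e-14 to 0.0135.

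ACACA (acetyl-CoA carboxylase alpha, the enzyme that commits acetyl-CoA to fatty acid synthesis; ENSG00000278540, chromosome 17, 37084988 to 37406818, minus strand) was at 57.4, 59.1 and 58.0 CPM in M2 DMSO and at 69.9, 69.2 and 74.9 CPM in M2 MCHP. Its groups did not overlap either, and the DMSO libraries lay close together. The rise, of 0.29 ± 0.07 (SE) on the log2 scale or 22.7% (adjusted p = 0.0212, edgeR's quasi-likelihood test), was less firm than that of SCD. Adjusted p was 0.0502 with library size as the only scaling, 0.123 with only the 6 M2 libraries in the fit, 0.063 without M2 MCHP replicate 1 and 0.121 without M2 MCHP replicate 3, with log2 fold changes of 0.25 to 0.31.

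The genes of acetyl-CoA supply were not called. ACSS2 (acyl-CoA synthetase short-chain 2; ENSG00000131069, chromosome 20, 34872146 to 34927962, plus strand) was at 81.3, 80.0 and 85.9 CPM in M2 DMSO and at 94.6, 92.6 and 96.9 in M2 MCHP. These groups did not overlap. Its log2 fold change was 0.20 ± 0.06 (SE, adjusted p = 0.0587), with adjusted p of 0.0232 by DESeq2 and 0.0212 without M2 DMSO replicate 1. The start of ACSS2 overlaps the start of GGT7 on the other strand, whose counts were 34.5% of those of ACSS2. ACLY (ATP citrate lyase; ENSG00000131473, chromosome 17, 41866908 to 41930542, minus strand) was at 179.8, 209 and 211 CPM in M2 DMSO and at 212, 219.7 and 229 in M2 MCHP, a log2 fold change of 0.14 ± 0.07 (SE, adjusted p = 0.255). Its groups were apart, but the highest DMSO library came within a few CPM of the lowest treated one.

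FASN (fatty acid synthase; ENSG00000169710, chromosome 17, 82078333 to 82098332, minus strand) turned on 1 library. It was at 184, 293 and 281 CPM in M2 DMSO and at 296, 276 and 319 in M2 MCHP. M2 DMSO replicate 1 was at 0.643 of the mean of the other M2 DMSO libraries, and those overlapped the treated libraries. The log2 fold change was 0.23 ± 0.12 (SE, 95% interval -0.02 to 0.48, adjusted p = 0.303), and 0.05 without that library. With no filter on low counts FASN was called (adjusted p = 0.0223), at the same fold change.

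The polyunsaturated fatty acid desaturases were not called. FADS1 (ENSG00000149485, chromosome 11, 61799625 to 61829318, minus strand) was at 105, 116 and 116 CPM in M2 DMSO and at 118, 119 and 139 in M2 MCHP, with 1 treated library well above the other 2. Its log2 fold change was 0.16 ± 0.07 (SE, adjusted p = 0.196). FADS2 (ENSG00000134824, chromosome 11, 61792980 to 61867354, plus strand) was at 74.7, 86.5 and 88.2 CPM and at 90.6, 84.2 and 98.9 CPM. Its groups overlapped, with a log2 fold change of 0.13 ± 0.08 (SE, adjusted p = 0.368).

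The 3 elongases were not called, and their changes were the smallest or least precise of the group. ELOVL1, which elongates saturated very long chains (ENSG00000066322, chromosome 1, 43363397 to 43368074, minus strand), was at 84.2, 86.9 and 88.1 CPM in M2 DMSO and at 98.1, 92.2 and 90.8 in M2 MCHP (log2 fold change 0.12 ± 0.06, SE, adjusted p = 0.322). ELOVL5, which elongates polyunsaturated acids (ENSG00000012660, chromosome 6, 53267398 to 53349179, minus strand), was at 174, 165 and 163 CPM and at 172, 171 and 173 CPM. Its groups overlapped, and the 95% interval of its log2 fold change, -0.07 to 0.16, is narrow. ELOVL6 (ENSG00000170522, chromosome 4, 110045846 to 110199199, minus strand), the only member below 0, was at 4.79, 4.71 and 3.88 CPM and at 3.29, 4.88 and 3.29 CPM. At this depth its interval ran from -0.65 to 0.23.

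Other measures moved with MCHP in M2. Mitochondrial genes took 3.10% to 3.23% of counts in M2 DMSO and 3.64% to 4.28% in M2 MCHP. The summed M2 markers were 8813 to 11190 CPM in DMSO and 11274 to 11464 in MCHP, a sum made up mostly of TGM2. TGM2 was at 8021, 10191.5 and 9961 CPM in DMSO and at 10115.3, 10103.5 and 9918.5 in MCHP. These groups overlapped, and the lower DMSO mean (9391 against 10046 CPM) rests on M2 DMSO replicate 1. CCL22, the next largest part, had group means of 742 CPM in DMSO and 1214 in MCHP. The other 3 M2 markers that passed the filter had lower means in MCHP: CD209 (161 and 107 CPM), ALOX15 (11.8 and 7.25) and CLEC10A (1.43 and 0.708). The 10 macrophage and myeloid markers summed to 1969 to 2096 CPM in DMSO and 1849 to 1869 in MCHP. The 5 proliferation markers summed to 25.8 to 28.8 CPM in DMSO and 31.7 to 33.1 in MCHP, but did not move alike. Means were higher in MCHP for MKI67 (9.55 and 11.6 CPM), RRM2 (4.01 and 5.78) and CDK1 (2.21 and 3.26). CCNB1 was nearly level (6.29 and 6.45) and TOP2A lower (5.69 and 5.29). None of these sums or shares overlapped between the groups, and their part in the changes of SCD and ACACA was not tested. Without M2 DMSO replicate 1 the log2 fold change of SCD was 0.42 and that of ACACA 0.29, both still called.

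In M1 macrophages, which ask the same of classically polarized cells, no member was called by edgeR's quasi-likelihood test (0 of 10, against 0.0852% of all genes, that is 13 genes). DESeq2 and limma-voom also called 0 of 10. At an unadjusted p under 0.05 there was 1 of 10, SCD, against 5.36% of all genes. The median log2 fold change over the 10 was 0.02, against 0 over all genes. SCD was at 1343, 1301 and 1360.2 CPM in M1 DMSO and at 1502, 1535 and 1481 in M1 MCHP. These groups did not overlap, and SCD was the only member higher in every MCHP library (8.35% of all genes were). Its log2 fold change was 0.17 ± 0.05 (SE, 12.8%, unadjusted p = 0.00388, adjusted p = 0.458). With only the 6 M1 libraries in the fit adjusted p was 0.000459, and without M2 DMSO replicate 1, which then no longer adds to the shared spread, it was 0.0102.

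For the other 9 genes the log2 fold changes in M1 ran from -0.41 (ELOVL6, 95% interval -0.94 to 0.11) to 0.11 (ACLY). ACACA was at 44.8, 45.0 and 51.0 CPM in M1 DMSO and at 53.4, 46.7 and 49.4 in M1 MCHP, and these overlapped (log2 fold change 0.09 ± 0.07, SE). FASN was at 247, 216 and 228 and at 223, 239.6 and 241 CPM, which also overlapped. FADS1 was the only member lower in every MCHP library (7.58% of all genes were), at 169, 166 and 170.4 CPM in DMSO against 159, 166 and 165 in MCHP, a gap smaller than the spread within either group.

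**Figure D3:**
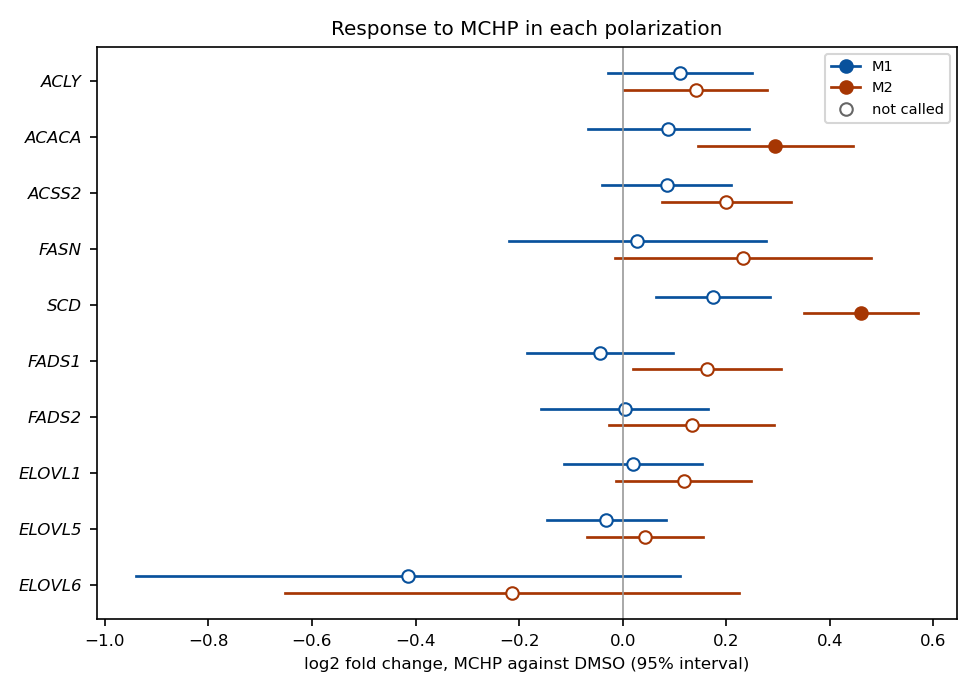
Response of each gene to MCHP in M1 and in M2 (horizontal axis: log2 fold change, MCHP against DMSO; lines: 95% intervals; filled points: adjusted p under 0.05). Only SCD and ACACA in M2 are filled, and the M1 and M2 intervals of SCD do not overlap (0.06 to 0.28 and 0.35 to 0.57).

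The difference between the responses (M1 minus M2) was called for 0 of 10 genes by edgeR's quasi-likelihood test and by limma-voom, against 0.164% of all genes by edgeR. DESeq2 called 1, SCD. All 10 differences were below 0 (49.6% of all genes were above 0), with a median of -0.17 against -0.0025 over all genes. Without M2 DMSO replicate 1 that of ACLY was 0.04, and those of FASN and FADS2 were -0.02 and -0.06. Only ELOVL5 and ELOVL6 then moved further below 0, to -0.11 and -0.26. At an unadjusted p under 0.05 there were 2 of 10, SCD and FADS1, against 8.84% of all genes. For SCD the difference was -0.29 (95% interval -0.44 to -0.13, adjusted p = 0.176), with adjusted p of 0.0292 by DESeq2 and 0.0118 without M2 DMSO replicate 1. For ACACA it was -0.21 (interval -0.42 to 0.01, adjusted p = 0.591), so a larger response of ACACA in M2 than in M1 was not shown. The difference uses the same 12 libraries as both responses and adds no separate measurement.

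Polarization moved more of these genes than MCHP did, as it did for genes in general. In DMSO, 6 of 10 were called between M1 and M2, against 42.5% of all genes tested, 2 higher in M1 (21.6% of all genes) and 4 lower (20.9%). FADS1 and ACSS2 were higher in M1, and ELOVL1, ELOVL5, ELOVL6 and ACACA lower. The M1 and M2 libraries did not overlap for 7 genes, 3 higher in M1 (25.5% of all genes) and 4 lower (24.1%). Scaled by library size alone, the median of all genes in this comparison shifts by -0.13, and 2395 genes are higher and 4532 lower in M1 in place of 3296 and 3193, so differences here are relative to the TMM scaling. The COL1A1 level and the M1 and M2 marker levels given above move with polarization too, and their part in these differences was not tested.

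FADS1 stood out among the genes higher in M1. It was at 169, 166 and 170.4 CPM in M1 DMSO and at 105, 116 and 116 in M2 DMSO, far apart, a log2 fold change of 0.59 ± 0.07 (SE, adjusted p = 9.28e-07, edgeR's quasi-likelihood test). FADS2, its neighbour, was at 77.8, 77.1 and 80.0 CPM in M1 DMSO, between the lowest and the other M2 DMSO libraries, with a log2 fold change of -0.09 ± 0.08 (SE, adjusted p = 0.392, but 0.0397 without M2 DMSO replicate 1 and 0.0257 when scaled by library size alone). The gene models of FADS1 and FADS2 overlap on opposite strands, with RefSeq start sites 599 bases apart. No strand setting is given for the counting, so how reads from the overlap were counted is not known. FADS2 also overlaps FEN1 on its own strand, whose counts were 10.6% of those of FADS2. The ratio of FADS1 to FADS2 counts was 2.03 to 2.17 in the 6 M1 libraries and 1.31 to 1.42 in the 6 M2 libraries, without overlap.

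ACSS2 was at 102, 99.4 and 95.9 CPM in M1 DMSO, above all M2 DMSO libraries, by 0.27 ± 0.06 (SE, adjusted p = 0.00127). It was no longer called with library size as the only scaling (0.14, adjusted p = 0.0675). ACLY, the other source of acetyl-CoA, was at 189, 204 and 191 CPM in M1 DMSO, within the range of M2 DMSO (-0.04 ± 0.07, SE). Scaled by library size alone it was called lower in M1, at -0.17 in DMSO and -0.16 under MCHP (adjusted p = 0.035 and 0.0424). The ratio of ACSS2 to ACLY counts was 0.474 to 0.540 in the 6 M1 libraries and 0.383 to 0.452 in the 6 M2 libraries.

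The 3 elongases among the 10 genes were each lower in M1. ELOVL5 was at 132, 126 and 131 CPM in M1 DMSO, a log2 difference of -0.37 ± 0.05 from M2 DMSO (SE, adjusted p = 1.71e-05). ELOVL1 was at 68.4, 65.5 and 62.1 CPM, at -0.40 ± 0.06 (adjusted p = 3.67e-05). ELOVL6 was at 2.57, 2.09 and 2.86 CPM, at -0.82 ± 0.22 (adjusted p = 0.00552), the widest difference of the group on the lowest counts. None of the 3 overlapped with M2 DMSO.

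ACACA was also lower in M1 DMSO, by -0.31 ± 0.07 on the log2 scale (SE, adjusted p = 0.00203), with no overlap between the groups. For FASN the log2 difference was -0.14 ± 0.12 (SE, adjusted p = 0.382). Without M2 DMSO replicate 1 it was -0.32 (adjusted p = 2.98e-05), so the lack of a call rests on that library. SCD in M1 DMSO lay above every M2 DMSO library, at 0.10 ± 0.05 (SE, adjusted p = 0.125), but at -0.02 with library size as the only scaling.

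Under MCHP, 9 of 10 genes were called between M1 and M2, against 44.6% of all genes, all but ACLY. FADS1 (0.38 ± 0.07, SE) and ACSS2 (0.15 ± 0.06) were higher in M1 (21.9% of all genes) and 7 genes lower (22.7%). SCD, not called in DMSO, was lower in M1 at -0.18 ± 0.05 (adjusted p = 0.00829), with 1502, 1535 and 1481 CPM in M1 MCHP against 1673, 1655 and 1798 in M2 MCHP. FASN was at 223, 239.6 and 241 CPM against 296, 276 and 319 (-0.34 ± 0.12, adjusted p = 0.0253), and FADS2 at 73.8, 80.4 and 81.4 against 90.6, 84.2 and 98.9 (-0.22 ± 0.08, adjusted p = 0.028). Each of these 3 genes was lower in every M1 library than in any M2 library, as were 28.8% of all genes.

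The other 4 genes kept the direction they had in DMSO: ACACA at -0.52 ± 0.07, ELOVL5 at -0.45 ± 0.05, ELOVL1 at -0.50 ± 0.06 and ELOVL6 at -1.03 ± 0.23 (SE). The call of ACSS2 (adjusted p = 0.0468) was lost under most alternatives (adjusted p up to 0.425), among them the removal of any 1 of the 6 MCHP libraries. That of FASN was lost without M1 MCHP replicate 1, 2 or 3 or M2 MCHP replicate 1 or 3 (0.0502 to 0.101), and that of FADS2 without M1 MCHP replicate 1 or 2 or M2 MCHP replicate 1 or 3 (0.0516 to 0.139). This comparison is a sum of the DMSO comparison and the difference of responses, and shares its libraries with the MCHP responses.

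**Figure D4:**
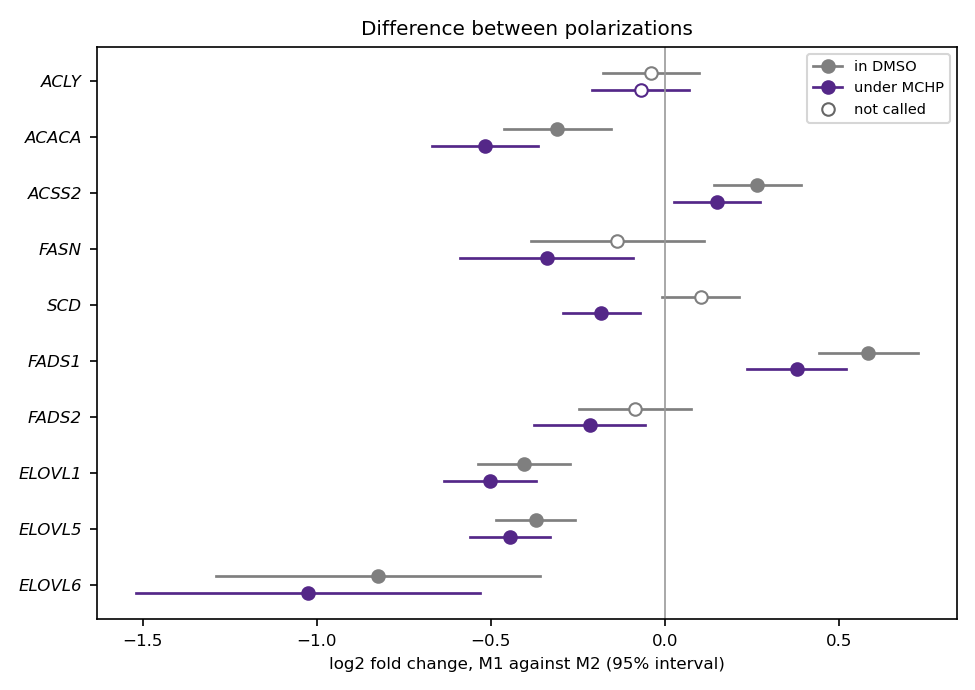
Difference between M1 and M2 for each gene, in DMSO and under MCHP (horizontal axis: log2 fold change, M1 against M2; lines: 95% intervals; filled points: adjusted p under 0.05). FADS1 and ACSS2 lie to the right of 0 and the 3 elongases and ACACA to the left in both, and SCD lies on either side.

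Among 8 lists of other genes around the pathway (79 genes with the filter passed by 70), calls in M2 with MCHP fell mostly on genes that use the products. The lists were written with an earlier report on these data known, so where the calls fell is not independent evidence. This list holds 11 genes that activate fatty acids or act in the making of phospholipid, triglyceride or sterol esters. Of these, 4 rose (2.92% of all genes did) and none fell, all 11 were above 0 (49.9% of all genes were), and the median was 0.20. ACSL5, an acyl-CoA synthetase, went from 94.4, 92.9 and 88.2 to 150.0, 154 and 146 CPM (0.71 ± 0.06, SE, adjusted p = 6.57e-07). DGAT2, which makes triglyceride, went from 138, 159 and 168 to 241, 229.8 and 228 CPM (0.59 ± 0.06, adjusted p = 2.97e-05). Both sets of libraries were far apart. ACSL1 (0.28 ± 0.05) and the cholesterol esterifying SOAT1 (0.34 ± 0.07) also rose. Both were lost with only the M2 libraries in the fit (adjusted p = 0.103 and 0.104), and SOAT1 also without M2 MCHP replicate 3 (0.0664). LPCAT3, which places polyunsaturated acids in phospholipid, was at 0.20 ± 0.11 and not called.

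Of 13 tested regulators, 1 rose in M2 by edgeR (2.92% of all genes did) and none fell (2.18%). It was NR1H3, which encodes liver X receptor alpha, from 30.1, 30.1 and 28.3 to 54.4, 53.7 and 51.8 CPM (0.85 ± 0.07, SE, adjusted p = 7.64e-07). DESeq2 also called MID1IP1, an activator of acetyl-CoA carboxylase, lower (-0.23, adjusted p = 0.0302). NR1H3 was the only list gene that edgeR called in M1 (0.50 ± 0.07, adjusted p = 0.00775), from 29.7, 27.2 and 29.6 to 40.1, 41.4 and 41.2 CPM. That M1 call was lost without M1 MCHP replicate 1, 2 or 3 or M1 DMSO replicate 2 or 3 (adjusted p of 0.0508 to 0.106). SREBF1 was at 151, 219 and 218 CPM in M2 DMSO and at 198, 197 and 195 in M2 MCHP, a log2 fold change of 0.00 ± 0.10 (SE). Without M2 DMSO replicate 1 it was -0.15 (adjusted p = 0.0344), so its sign rests on that library. SREBF2 was at 0.07 ± 0.06 and INSIG1, a sterol-sensing target of SREBP, at 0.12 ± 0.05 (adjusted p = 0.626 and 0.199).

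Of 6 tested enzymes of the elongation cycle and of electron supply to the desaturases, 1 rose in M2, TECR, the last reductase of each elongation round. It went from 134, 159 and 156 to 188, 191 and 181 CPM (0.32 ± 0.06, SE, adjusted p = 0.00711), but was lost with only the M2 libraries in the fit (0.122). The other 5 lists held no called gene in M2 by edgeR, DESeq2 or limma-voom. They are the paralogs of the 10 genes, supply of citrate, acetyl-CoA and NADPH, AMPK and malonyl-CoA control, mitochondrial fatty acid synthesis, and SREBP2 targets of cholesterol synthesis. At an unadjusted p under 0.05 there were 4 of their 40 tested genes, against 18.8% of all genes. The 8 tested paralogs had a median of -0.10, with 1 of 8 above 0. In M1, 7 lists held no call by edgeR or limma-voom and 2 by DESeq2, ACSL1 (0.20, adjusted p = 0.00619) and ACSL5 (0.22, adjusted p = 0.0216). Of their 57 genes 6 were at an unadjusted p under 0.05, against 5.36% of all genes.

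**Figure D5:**
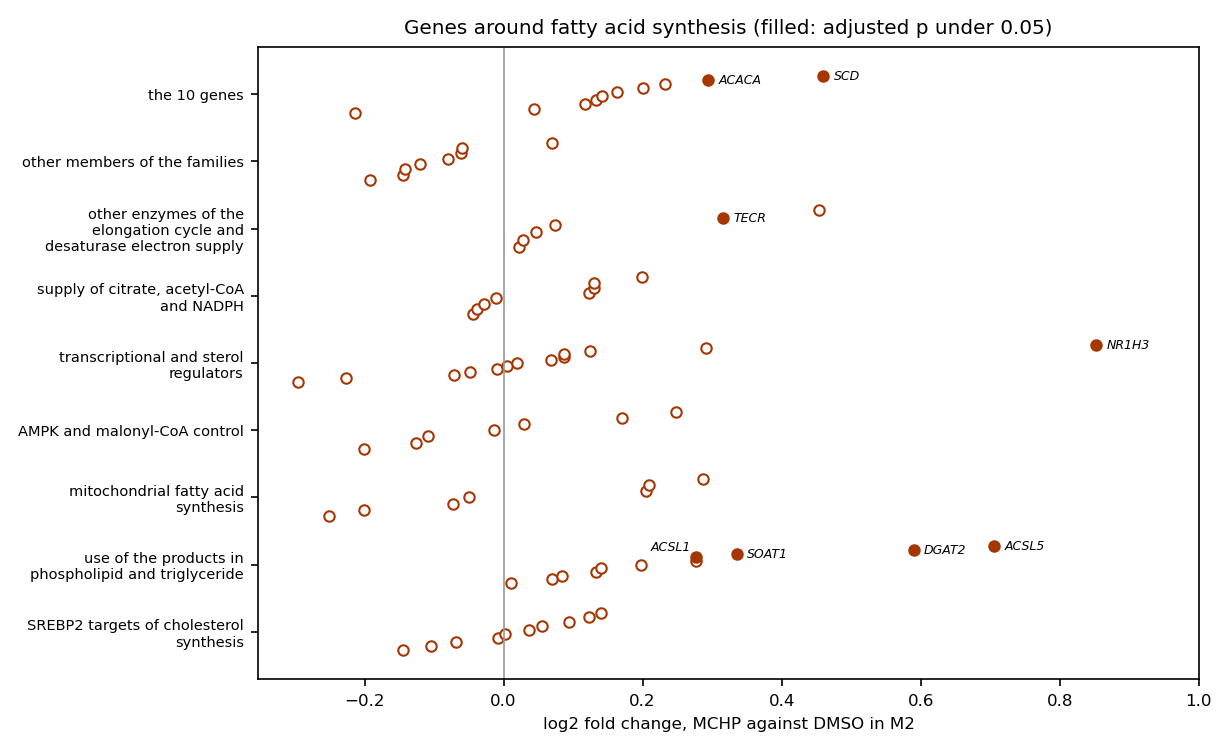
Log2 fold change of MCHP against DMSO in M2 (horizontal axis) for the 10 genes and 8 lists of related genes (vertical axis; points within a list are in order of value; filled and named: adjusted p under 0.05). The 11 genes of product use all lie above 0, with ACSL5 and DGAT2 highest, while the cholesterol synthesis genes lie on both sides of 0.

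Between M1 and M2 in DMSO the same lists held many calls, as genes in general did (42.5% of all genes, 21.6% higher in M1 and 20.9% lower). Of the 6 enzymes of the elongation cycle and desaturase electron supply 4 were lower in M1 and none higher. They were the elongation cycle dehydratases HACD2 (-0.89 ± 0.07, SE) and HACD3, the reductase TECR (-0.73 ± 0.07), and CYB5R3, which passes electrons to the desaturases (-0.22, adjusted p = 0.0435). CYB5R3 was lost by DESeq2, by limma-voom and without M1 DMSO replicate 1, 2 or 3 or M2 DMSO replicate 2 or 3 (adjusted p of 0.053 to 0.232). Of 8 genes of citrate, acetyl-CoA and NADPH supply 5 were lower, MDH1 most (-1.13 ± 0.07), and 2 higher, SLC25A1 and PGD, both lost with library size as scaling (adjusted p = 0.0626 and 0.0733). SLC25A1 went from 0.41 to 0.23 without M2 DMSO replicate 1, and was still called. Of 8 tested paralogs 2 were higher and 2 lower: ELOVL7 (1.19 ± 0.21) and ACSS1 (0.32 ± 0.12), and SCD5 (-0.72 ± 0.14) and ACSS3 (-0.35 ± 0.09). The call of ACSS1 was lost by DESeq2 (adjusted p = 0.0823), with library size as scaling (0.219) and without M1 DMSO replicate 1 or 3 or M2 DMSO replicate 2 or 3 (0.067 to 0.157). SCD5, the second human stearoyl-CoA desaturase gene, was at 11.4 ± 2.39 CPM in M1 DMSO and 18.8 ± 1.01 in M2 DMSO (SD, n = 3). Of 11 genes of product use 8 were higher in M1, led by ACSL1 (1.05 ± 0.05) and ACSL4 (1.00 ± 0.05), and 2 lower, GPAM and DGAT1. GPAM was lost by DESeq2 (adjusted p = 0.124) and without M1 DMSO replicate 1, 2 or 3 or M2 DMSO replicate 1 or 2 (0.0761 to 0.106), and DGAT1 without M1 DMSO replicate 3 or M2 DMSO replicate 2 or 3 (0.0625 to 0.0782). Of 13 tested regulators 2 were higher in M1 and 3 lower. The higher ones were SREBF1 (0.48 ± 0.10) and NR1H2, the gene of liver X receptor beta (0.74 ± 0.08). SREBF1 was smaller, at 0.32, but still called without M2 DMSO replicate 1. Among the lower ones were MLXIPL (-0.67) and MID1IP1 (-0.48).

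The genes most like SCD over the 12 libraries were MAFF, BRPF3 and TSC22D2. Likeness is the root mean square difference of log2 CPM after centring each gene on its mean, among 9603 protein-coding genes with a mean of at least 5 CPM. It was 0.049, 0.056 and 0.056, against a median of 0.262 and against 0.180 for a gene that did not change at all. For ACACA they were IGF2BP2, ROCK2 and ZADH2, at 0.057, 0.057 and 0.065 against a median of 0.296 and 0.243 for an unchanged gene. MAFF, for example, had log2 fold changes of 0.41 with MCHP in M2 and 0.14 in M1, beside 0.46 and 0.17 for SCD. Close fold changes follow from the choice, which used the same libraries.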

How the data were processed

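Per the file headers, the table deposited by the authors gives unnormalized whole-number counts of reads for each gene in 12 columns, beside the length in bases of each gene model. Per the labels' protocols, TRIzol RNA was selected on poly-T beads and copied from random primers. The submitters' processing notes name, with no roles, the build hg38 and the tools featureCounts 1.5.0-p3, HISAT2 2.0.5, DESeq2 1.20.0, fastp and StringTie 1.3.3b. The strand setting of the counting is not given in the sources used here. How reads in the overlap of genes on opposite strands were counted is therefore not known. Overlaps were taken between whole gene spans, introns included.

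Models were fitted with edgeR 4.0.16 (R 4.3.3) to the genes that filterByExpr kept over the 4 groups. TMM factors scaled the libraries, and a single fit of all 12 gave each group 1 mean (8 residual degrees of freedom). M2 DMSO replicate 1 therefore adds to the spread of every contrast. Contrasts were tested with the two-sided quasi-likelihood F-test, with Benjamini-Hochberg adjustment over all 15252 genes and a threshold of 0.05. The SE of a log2 fold change follows from its F statistic. The steps were run on simulated counts, only as a check of the steps themselves. Those counts held no library unlike its group, so they do not show how M2 DMSO replicate 1 affects the calls. Alternatives were DESeq2 size factors, no filter on low counts, library size alone, a replicate block, DESeq2 1.42.0, limma-voom (limma 3.58.1) and the compared libraries only. Each library was also left out in turn, for the contrasts that use its group. M2 DMSO replicate 1 was left out for every contrast.

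The 10 genes, the lists and the tests were chosen with earlier results of these data known. Named beside the 10 were the called genes of each list with the smallest p (up to 4 a list and comparison), SREBF1, SREBF2, INSIG1, NR1H3 and LPCAT3, and the 3 genes most like each of SCD and ACACA. Gene coordinates are those of the deposited table (hg38), and exons are from GENCODE. Depth differs little between libraries, and it limits mainly ELOVL6. Replicate numbers did not pair the libraries: of 18 pairs of same-numbered libraries, 0 had deviations from their group means correlated above 0.1.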

Additional observations from a re-analysis of the deposited data

Results flagged for a closer look

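For ACSL5, an acyl-CoA synthetase among the genes that use the products of fatty acid synthesis, the response to MCHP differed between polarizations by a test of the difference itself. The log2 fold change was 0.22 ± 0.06 (SE) in M1 and 0.71 ± 0.06 in M2, a difference of -0.48 ± 0.08 (M1 minus M2, adjusted p = 0.0146, edgeR's quasi-likelihood test). ACSL5 was at 136, 137 and 133 CPM in M1 DMSO, 162, 159 and 152 in M1 MCHP, 94.4, 92.9 and 88.2 in M2 DMSO and 150.0, 154 and 146 in M2 MCHP. MCHP libraries were above DMSO libraries in both polarizations, and M2 DMSO was the lowest group. The call was lost when any 1 of 6 libraries was left out (adjusted p of 0.0502 to 0.0683): M1 MCHP replicate 2 or 3, M1 DMSO replicate 1, 2 or 3, or M2 MCHP replicate 1.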

How the results depend on the processing

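The call of SCD in M2 held under every alternative run, and the 13 or 14 alternatives on each left the calls of FADS1, ACACA, ELOVL1, ELOVL5 and ELOVL6 between M1 and M2 unchanged in DMSO and under MCHP. Called members in M2 numbered 1 with library size alone and 1 with the compared libraries only, against 2, and 1 to 3 with 1 library left out. Called genes in M2 were 183 with the compared libraries only and 383 to 1747 with 1 library left out, the highest without M2 DMSO replicate 1. With library size alone 306 were higher and 465 lower, against 446 and 333, and under MCHP 2678 were higher and 4338 lower in M1, against 3342 and 3462. In M1, 1 member (SCD) was called with the compared libraries only and 1 without M2 DMSO replicate 1 (0 to 1 over libraries left out). Called genes there were 76 with no filter, 55 by DESeq2, 295 with the compared libraries only, and 1 to 4 with 1 M1 library left out, against 159 without M2 DMSO replicate 1. For the difference, DESeq2 called 1 member, and 0 to 1 were called with 1 library left out; called genes were 170 with no filter, 95 by DESeq2 and 5 to 385 with 1 library left out. With a replicate block, called members were 2 in M2, 0 in M1, 0 for the difference, 6 in DMSO and 8 under MCHP (ACSS2 lost, adjusted p = 0.0566), and called genes 692, 5, 24, 6387 and 6700. Of 18 pairs of same-numbered libraries 5 matched their own number best, so the numbers do not pair the libraries.

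Signs turned only for values not called in the fit reported above, and of the turned values only that of SREBF1 without M2 DMSO replicate 1 was called. In M2, ELOVL5 was -0.0019 and SREBF1 -0.037 with library size alone. SREBF1 was -0.0027 with the compared libraries only and -0.15 to 0.093 with 1 library left out, and SREBF2 -0.012 to 0.12. In M1, FADS2 was -0.00066 with library size alone, -0.0014 with no filter, -0.00028 with the compared libraries only and -0.022 to 0.048 with 1 library left out. The ranges with 1 library left out were -0.016 to 0.082 for FASN, -0.015 to 0.055 for ELOVL1 and -0.12 to 0.077 for LPCAT3, which was 0.0018 by limma-voom. For the difference, ACLY was 0.0076 with library size alone and -0.073 to 0.039 with 1 library left out, and ELOVL6 -0.42 to 0.020. Between M1 and M2 in DMSO, ACLY was -0.11 to 0.0018 with 1 library left out and SCD -0.025 with library size alone. The cause was not tested for any of these. Without gene length the rank of 22 of 40 gene levels moved.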
